A study of Mus musculus with 11 samples.

Results

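Solute carriers are the genes whose symbols begin with Slc and a number, and 209 of them were detected in the sorted mouse marrow cells described here. They were taken from 352 such symbols with a named probe. A gene was kept when its probe of highest mean signal had a detection p under 0.05 on at least 2 of 11 arrays. Slc4a1, Slc11a2, Slc25a37 and Slc40a1, which serve red cells or iron handling, were left out by the rule. The 209 belong to 11367 genes that met the same detection rule, of 19057 genes with a named probe. Detection on the arrays thus chose the members, and it is given below as a description only. Of the 209, 5 are named after a carrier but are not carriers themselves (Slc7a6os, Slc4a1ap, Slc9a3r1, Slc9a3r2 and Slc2a4rg-ps).

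Solute carriers are membrane proteins that move amino acids, sugars, nucleosides, vitamins, metals and other ions across the plasma membrane and across the membranes of mitochondria, lysosomes and the Golgi. Some exchange a solute for another, some couple uptake to sodium or proton gradients, and some let a solute run down its own gradient. In marrow, red cell precursors import glycine for haem synthesis, phagocytes keep lysosomal and phagosomal carriers, and dividing progenitors of all lineages import amino acids and glucose.

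The cells were sorted from the endosteal region of marrow of C57BL/6 mice and measured on Illumina bead arrays. HSC (haemopoietic stem cells, LSK CD150+ CD48-, 2 arrays) were compared with 3 fractions, of 3 arrays each, that were positive for AGE, a reagent carrying a fluorescein tag: CD31+ B220+, CD31+ B220- and CD31- B220-. CD31 is an endothelial and leukocyte surface protein, and B220 is a surface marker of B lineage cells. All mice carried the same strain label, and no genotype, treatment, age or sex was given. The labels state that RNA was pooled for part of the samples, without saying which. They do not say that the numbered replicates came from separate animals, so p-values measure only the spread between these samples. The labels call the 3 AGE+ fractions scavenger endothelial cells, although the source name of the CD31- B220- samples begins with HSC, and their titles were followed.

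Marker genes were read first as a check on these labels, as sums of the normalized signal on a linear scale. Of 10 tested endothelial genes, 8 were detected on both HSC arrays, 7 on every CD31+ B220- array, and only 2 on every array of the CD31+ B220+ and of the CD31- B220- fraction, where Tek, Tie1, Emcn and Stab2 were not detected on any array. Their sum ran from 7189 to 7694 in HSC, from 1635 to 1933 in CD31+ B220+, from 2254 to 3041 in CD31+ B220- and from 2144 to 2179 in CD31- B220-. All 3 fractions lay below HSC in this sum, although Cdh5, an endothelial cadherin, and Kdr, a VEGF receptor, were not detected on either HSC array, and CD31+ B220- cells had no listed gene undetected on all their arrays. A sum over probes can be carried by a few bright genes. The fractions are called here by their surface markers. B lineage genes (8 tested) summed to between 46119 and 47625 in CD31+ B220+, 10278 and 16659 in CD31+ B220-, 603 and 1005 in CD31- B220-, and 1046 and 1124 in HSC. Erythroid genes (8 tested) summed to between 27915 and 40870 in CD31- B220-, 1052 and 1426 in CD31+ B220-, 330 and 585 in CD31+ B220+, where Gata1, Ermap and Rhag were not detected, and 3447 and 3961 in HSC. Monocyte and macrophage genes (8 tested) summed to between 40989 and 46099 in CD31+ B220- and 33516 and 43469 in CD31- B220-, but to 851 to 1406 in CD31+ B220+ and 2220 to 2763 in HSC. Neutrophil genes (10 tested) ran from 75754 to 82364 in CD31+ B220-, from 30466 to 67080 in CD31- B220-, from 1711 to 7357 in CD31+ B220+ and from 7608 to 7912 in HSC. Stromal genes (7 tested) were all detected in CD31- B220-, at 6351 to 9344, against at most 703 on any other array. These marker lists were high in some of the same groups as carriers described below, and their part in those results was not tested. In sorted bulk samples, fewer cells of a type and less RNA per cell cannot be told apart.

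Of the 352 symbols, 100 were detected on no array, 43 on 1, 31 on 2 and 84 on all 11. The members just inside the limit, detected on 2 arrays, had mean raw signals of 126.1 to 205.6 (median 143.7), and 15 of these 31 were detected on both HSC arrays and on no other. The genes just outside it, detected on 1 array, had mean raw signals of 124.2 to 140.7 (median 130.8). On the group level, 113 members were detected on at least 1 array of each of the 4 groups and 15 in HSC only. HSC arrays detected 155 and 163 members, the other arrays fewer, and HSC detected 148 on both arrays against 110, 113 and 116 on every array of CD31+ B220+, CD31+ B220- and CD31- B220-.

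**Figure D1:**
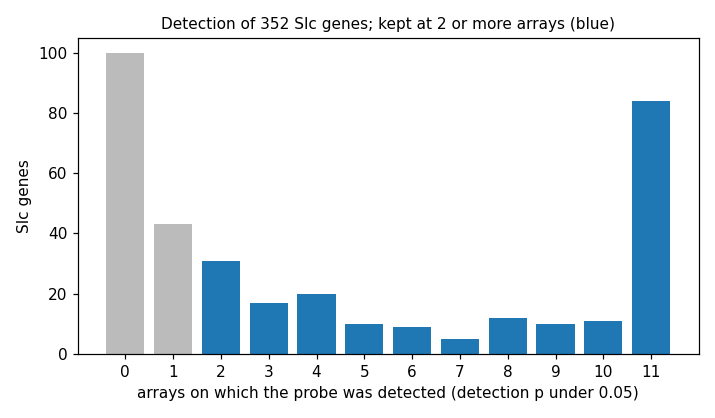
Number of Slc genes (vertical axis) by the number of arrays that detected their probe (horizontal axis, detection p below 0.05); grey bars were left out and blue bars kept. The counts pile up at both ends, with 100 genes detected on 0 arrays and 84 on all 11.

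All values that follow are log2 normalized signals of single probes, and a level of one gene is not set against that of another. Groups were compared with limma's moderated test on all 11 arrays, and a gene was called when its p, adjusted by Benjamini-Hochberg for 11367 genes, was under 0.05. Log2 differences are the group named first in the sentence minus the other. Written as "at least", a fold is a lower bound, used where the gene went undetected throughout the dimmer group. The 15 members detected in HSC only, and Slc9a7, Slc45a3 and Slc30a10, each detected in 1 fraction only, met the detection rule through the group where they were high. That fixed a difference from this group, so it is described for them with no test. The same holds for members detected on only 1 array outside the group where they were high. Among these are Slc18a2, Slc2a4, Slc34a1, Slc39a8, Slc43a3 and Slc4a8. In the comparisons of CD31+ B220+, CD31+ B220- and CD31- B220- with HSC, members detected in HSC only made 12 of 57, 13 of 50 and 14 of 64 lower calls. These counts leave out members such as Slc18a2, so the remaining calls are not all free of the detection rule. The size of a fold against a dim group depends on the background correction: for Slc18a2, CD31+ B220+ minus HSC was -5.39 here, -3.04 without background correction and -7.06 in the deposited processed values. All 3 comparisons that involve HSC rest on 1 pair of arrays, and each pair of comparisons between the fractions shares a fraction. Over the 4 groups together, limma's F-test called 141 members (67.5%), against 69% of all tested genes. Members detected in HSC only were among the 141. Over the 3 AGE+ fractions it called 103 members (49.3%), against 51.9% of all. Both shares lay close to the background, so differences between these cells were about as common among the carriers as among all tested genes. HSC held the highest group mean for 72 members, CD31- B220- for 57, CD31+ B220+ for 43 and CD31+ B220- for 37. In percent these were 34.4, 27.3, 20.6 and 17.7, against 35.1, 22.7, 26.1 and 16 of all tested genes.

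**Figure D2:**
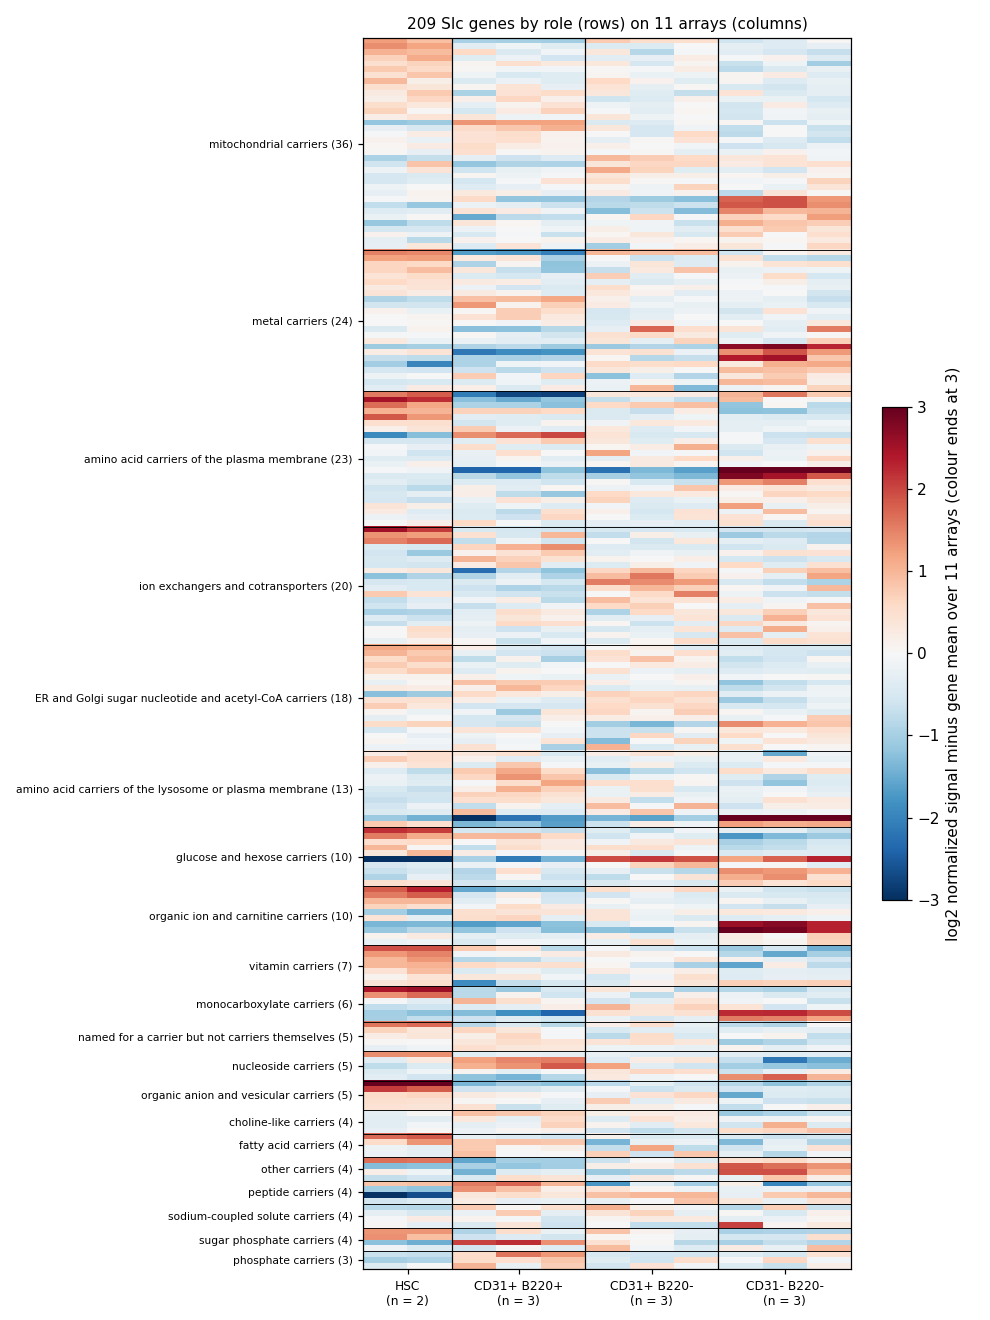
Each row is 1 of the 209 Slc genes, grouped by role with the number of genes in brackets, and each column 1 of the 11 arrays; colour gives the log2 normalized signal minus the gene's mean over the arrays, with red higher and blue lower and the scale ending at 3. Arrays of 1 group share their pattern, and the darkest red rows of the CD31- B220- columns are amino acid, organic ion and metal carriers such as Slc38a5, Slc6a9, Slc22a4 and Slc30a10.

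Against HSC, CD31+ B220+ cells had lower signal for Slc18a2, Slc6a13, Slc7a4, Slc16a9, Slc39a11 and Slc48a1 and higher signal for Slc1a5, Slc37a2, Slc15a3 and Slc25a18. The fall of Slc18a2 from HSC, here and in the other fractions below, is described with no test. In CD31+ B220+ against HSC, 89 of the 209 members were called (42.6%), against 45.3% of all tested genes. Of them 32 were higher (15.3%, against 18.4% of all) and 57 lower (27.3%, against 26.9%). When arrays were scaled by their medians in place of quantiles, 16 were higher and 131 lower, and the median of all genes was then -1.22, against -0.06 with quantiles.

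Against HSC, CD31+ B220- cells had higher signal for Slc2a6, Slc15a3, Slc9a9 and Slc11a1 and lower signal for Slc18a2, Slc7a4, Slc16a9 and Slc2a3. The 78 calls (37.3%, against 42.5% of all tested genes) were 28 higher (13.4%, against 17.5%) and 50 lower (23.9%, against 25%). Each HSC array weighed on this count: 50 members were called without HSC array 1, 18 higher and 32 lower, and 51 without HSC array 2. Median scaling gave 17 higher and 134 lower, with a median of all genes of -1.14, against -0.09 with quantiles.

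Against HSC, CD31- B220- cells had the most calls, led by higher signal for Slc38a5, Slc2a6, Slc22a4, Slc22a23 and Slc6a9 and by lower signal for Slc18a2 and Slc16a9. The 110 calls (52.6%, against 50.1% of all tested genes) were 46 higher (22%, against 20.6%) and 64 lower (30.6%, against 29.5%). Median scaling gave 27 higher and 116 lower, with a median of all genes of -1.08, against -0.08 with quantiles. Signals on the HSC arrays were brighter before normalization, with a 75th percentile of 376.8 and 450.5 against 145.9 to 211.6 elsewhere. This brightness and the cell type cannot be told apart, and every difference from HSC is relative to the quantile scaling.

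Between the fractions, CD31+ B220+ cells stood above CD31+ B220- cells for Slc1a5, Slc37a2, Slc15a2 and Slc34a1 and below them for Slc2a6, Slc39a11, Slc6a13 and Slc41a3. The difference of Slc34a1 is described with no test. The 71 calls (34%, against 35.2% of all tested genes) were 31 higher (14.8%, against 16.7%) and 40 lower (19.1%, against 18.5%). Median scaling left 16 higher and 36 lower. Against CD31- B220- cells, CD31+ B220+ cells had 86 calls (41.1%, against 44.8%), 39 higher (18.7%, against 22.3%) and 47 lower (22.5%, against 22.5%). CD31+ B220- and CD31- B220- cells differed for 62 members (29.7%, against 28.1%), with 29 higher in CD31+ B220- (13.9%, against 16%) and 33 lower (15.8%, against 12.1%). The 29 fell to 19 without CD31- B220- array 2. Among the 84 members detected on all 11 arrays, 44% were called in this last comparison, against 30.6% of the 6253 genes detected on all 11. In the order of the other comparisons above, the members' shares were 46.4%, 38.1%, 59.5%, 39.3% and 56%, against 47.2%, 43.9%, 52.7%, 39.8% and 51.5%. The F-tests called 79.8% of them over the 4 groups and 66.7% over the 3 fractions, against 75.4% and 59.3%. Detection on all arrays is part of the rule that chose the members, so this pair of shares is a description with no test.

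**Figure D3:**
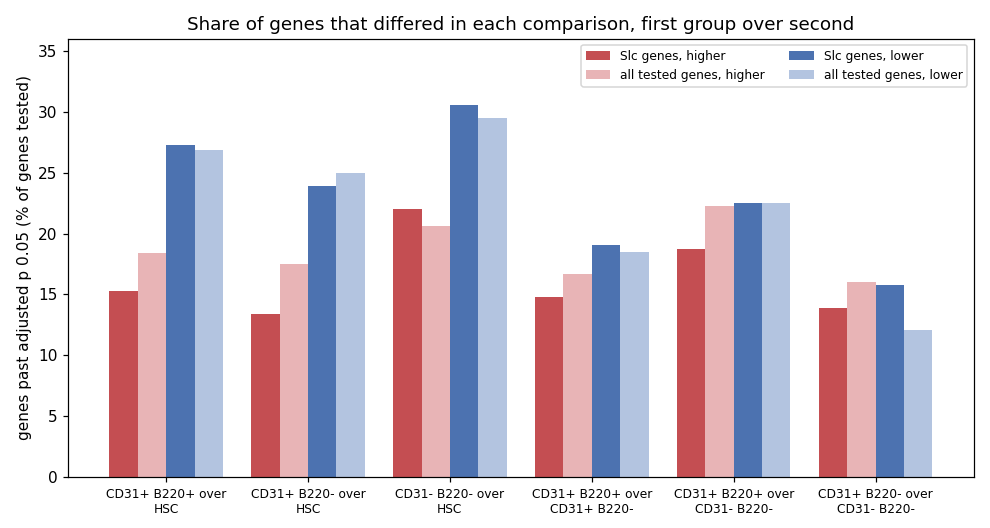
Share of genes called at an adjusted p under 0.05 (percent, vertical axis) in each of the 6 comparisons, higher and lower in the first-named group, for the 209 Slc genes and for all 11367 tested genes. The members' shares lie near those of all tested genes; CD31- B220- against HSC has the most members called, 110.

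Promoter windows were read for members that lead these comparisons, to show the start regions of a pair of carriers high in CD31- B220- and of 1 high in HSC. RefSeq windows of build GRCm38.p6 hold 250 bases before and 50 bases after the gene start, and 164 of the 209 members matched one. Slc38a5 (a glutamine carrier), Slc25a38 (the mitochondrial glycine carrier) and Slc18a2 (the vesicular monoamine carrier) are shown with matches to the GATA motif in capitals.
Slc38a5, chrX:8271131-8271430, plus strand: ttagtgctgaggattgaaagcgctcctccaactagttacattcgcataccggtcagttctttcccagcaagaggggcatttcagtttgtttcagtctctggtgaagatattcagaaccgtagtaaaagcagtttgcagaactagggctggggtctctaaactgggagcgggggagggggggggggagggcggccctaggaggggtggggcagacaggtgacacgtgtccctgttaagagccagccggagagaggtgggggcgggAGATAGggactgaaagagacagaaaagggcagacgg
Slc25a38, chr9:120110132-120110431, plus strand: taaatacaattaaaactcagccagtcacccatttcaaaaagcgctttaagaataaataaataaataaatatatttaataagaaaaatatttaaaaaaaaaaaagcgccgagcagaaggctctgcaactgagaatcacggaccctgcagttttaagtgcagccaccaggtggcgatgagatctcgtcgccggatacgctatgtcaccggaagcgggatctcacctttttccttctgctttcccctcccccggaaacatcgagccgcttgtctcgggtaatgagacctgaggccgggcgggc
Slc18a2, chr19:59260628-59260927, plus strand: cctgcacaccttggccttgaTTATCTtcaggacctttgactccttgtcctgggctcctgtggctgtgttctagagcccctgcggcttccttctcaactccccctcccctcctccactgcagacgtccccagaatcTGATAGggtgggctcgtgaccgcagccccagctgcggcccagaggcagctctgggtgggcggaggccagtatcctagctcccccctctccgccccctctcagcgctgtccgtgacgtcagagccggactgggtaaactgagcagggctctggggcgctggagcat
The letters searched were AGATAA or AGATAG as well as TGATAA or TGATAG on both strands. Slc38a5 held 1 match at bases 265 to 270 of its window, Slc18a2 held 2 at bases 21 to 26 and 136 to 141, and Slc25a38 held none. Of 27025 genes with a window, 30.2% held a match in their first window, against 20.7% of the 164 members. CCACACCC, the letters of a KLF motif, stood in 3.57% of genes and 5.49% of members, and GAGGAAGT, the letters of a PU.1 motif, in 3.28% and 4.27%. A match describes letters only.

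Amino acid carriers of the plasma membrane (23 members) and those of families 38 and 66, found at the plasma membrane or in the lysosome (13 members), held the largest differences between the fractions among the members, those of Slc38a5 and Slc6a9. Of the first set, CD31- B220- cells were higher than HSC for 6 and lower for 5, where 20.6% and 29.5% of all tested genes were higher and lower. CD31+ B220+ cells were higher than HSC for 1 and lower for 6, where 18.4% and 26.9% of all were. The median log2 differences were 0.14 and -0.18, against -0.08 and -0.06 over all tested genes. Of the 13 in families 38 and 66, CD31- B220- cells were higher than HSC for 3 and lower for 1, and CD31+ B220+ cells higher for 5 and lower for 3, with medians of 0.305 and 0.47. Slc38a5, a carrier of glutamine, asparagine, glycine and serine, stood at 7.19 and 6.86 in HSC, 4.82, 6.06 and 6.58 in CD31+ B220+ (2 of 3 detected), 6.88, 6.68 and 7.26 in CD31+ B220- and 13.18, 13.01 and 12.55 in CD31- B220-. The CD31- B220- arrays lay above every other array. Slc38a5 was 62.9-fold lower in CD31+ B220- than in CD31- B220- (log2 difference -5.98, SE 0.38, adjusted p = 5.90e-07). Slc38a5 was also 59.1-fold higher in CD31- B220- than in HSC (log2 difference 5.89, SE 0.42, adjusted p = 7.31e-07). Slc6a9, the glycine carrier of the plasma membrane, stood at 7.03 and 6.97 in HSC, 4.69, 4.703 and 5.89 in CD31+ B220+ (1 of 3 detected), 4.85, 5.74 and 5.46 in CD31+ B220- (2 of 3 detected) and 11.14, 10.55 and 10.88 in CD31- B220-. Slc6a9 was 14.5-fold higher in CD31- B220- than in HSC (log2 difference 3.86, SE 0.37, adjusted p = 6.60e-06). Slc6a9 was also 45.5-fold lower in CD31+ B220- than in CD31- B220- (log2 difference -5.51, SE 0.33, adjusted p = 4.03e-07). Slc43a1, a carrier of large neutral amino acids such as leucine, stood at 8.51 and 8.54 in HSC, 8.12, 7.75 and 8.19 in CD31+ B220+, 7.95, 7.78 and 7.59 in CD31+ B220- and 11.75, 11.45 and 10.82 in CD31- B220-. Its CD31- B220- arrays again did not overlap the others. Slc43a1 was 11.9-fold lower in CD31+ B220- than in CD31- B220- (log2 difference -3.57, SE 0.23, adjusted p = 7.55e-07).

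Other amino acid carriers had other high groups. Slc1a5, the sodium-dependent exchanger of glutamine and other neutral amino acids, stood at 5.01 and 5.66 in HSC (1 of 2 detected), 8.32, 8.62 and 8.92 in CD31+ B220+, 7.33, 6.46 and 6.44 in CD31+ B220- and 6.86, 6.28 and 6.26 in CD31- B220-. The CD31+ B220+ arrays were highest. Slc1a5 was 9.78-fold higher in CD31+ B220+ than in HSC (log2 difference 3.29, SE 0.33, adjusted p = 9.48e-06). Likewise, Slc1a5 was 4.45-fold higher in CD31+ B220+ than in CD31- B220- (log2 difference 2.15, SE 0.29, adjusted p = 9.66e-05). Slc38a2, which carries small neutral amino acids, stood at 11.28 and 11.02 in HSC, 12.07, 12.81 and 12.303 in CD31+ B220+, 11.002, 11.32 and 11.495 in CD31+ B220- and 11.103, 10.56 and 11.09 in CD31- B220-. Slc38a2 was 2.78-fold higher in CD31+ B220+ than in CD31- B220- (log2 difference 1.48, SE 0.24, adjusted p = 3.46e-04), on the reported probe only. Slc38a9, a lysosomal arginine sensor upstream of mTORC1, had means of 9.98 ± 0.29 (SD, n = 3) in CD31+ B220+ and 8.27 ± 0.33 (SD, n = 3) in CD31+ B220-. Slc38a9 was 3.27-fold higher in CD31+ B220+ than in CD31+ B220- (log2 difference 1.71, SE 0.22, adjusted p = 1.06e-04).

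A further set of amino acid carriers was highest in HSC. Slc6a13, a carrier of GABA, stood at 8.78 and 9.03 in HSC, 5.13, 4.49 and 4.42 in CD31+ B220+ (not detected), 7.55, 7.51 and 7.47 in CD31+ B220- and 8.24, 8.81 and 7.998 in CD31- B220-. CD31+ B220+ was the only group that did not detect it. Slc6a13 was at least 10.5-fold lower in CD31+ B220+ than in HSC (adjusted p = 2.88e-07). Slc6a13 was also at least 3.97-fold lower in CD31+ B220+ than in CD31+ B220- (adjusted p = 4.58e-06). Slc6a15, a carrier of branched-chain and other neutral amino acids, stood at 6.89 and 6.33 in HSC, 4.71, 4.68 and 4.599 in CD31+ B220+ (not detected), 4.59, 4.76 and 4.91 in CD31+ B220- (not detected) and 4.68, 4.63 and 4.58 in CD31- B220- (not detected). Only HSC detected Slc6a15. Slc6a15 was at least 2.13-fold lower in CD31+ B220+ than in HSC, given with no test and on the reported probe only. The log2 difference was -1.94 on that probe and -0.14 on the other. Slc7a4, a member of the cationic amino acid carrier family with no settled substrate, stood at 8.64 and 8.34 in HSC, 4.87, 4.63 and 4.97 in CD31+ B220+ (not detected), 5.42, 5.78 and 5.39 in CD31+ B220- (1 of 3 detected) and 7.08, 6.12 and 6.21 in CD31- B220-. Slc7a4 was at least 7.84-fold lower in CD31+ B220+ than in HSC (adjusted p = 1.21e-06). Slc7a8, a light chain that pairs with Slc3a2 to carry large neutral amino acids, stood at 7.52 and 7.01 in HSC, 4.88, 4.88 and 4.57 in CD31+ B220+ (not detected), 6.43, 6.62 and 6.75 in CD31+ B220- and 4.65, 5.896 and 5.02 in CD31- B220- (1 of 3 detected). Slc7a8 was at least 3.36-fold lower in CD31+ B220+ than in HSC (adjusted p = 6.94e-05). Slc7a8 was also at least 2.11-fold lower in CD31+ B220+ than in CD31+ B220- (adjusted p = 4.68e-04), on the reported probe only. Slc3a2 itself, the shared heavy chain, stood at 6.02 and 5.41 in HSC, 5.36, 5.001 and 6.26 in CD31+ B220+ (1 of 3 detected), 5.94, 5.25 and 6.22 in CD31+ B220- (2 of 3 detected) and 5.604, 6.71 and 5.86 in CD31- B220-, detected on only part of the arrays. Slc7a6, a light chain that exchanges cationic for neutral amino acids, had means of 7.58 ± 0.01 (SD, n = 2) in HSC and 5.498 ± 0.28 (SD, n = 3) in CD31- B220-, with 1 of 3 arrays detecting it there. Slc7a6 was 4.23-fold lower in CD31- B220- than in HSC (log2 difference -2.08, SE 0.26, adjusted p = 5.18e-05). The heavy chain Slc3a1 and the light chain Slc7a5 were not analysed here.

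Glucose and hexose carriers (10 members) split between HSC and the B220- fractions. Slc2a3, a high-affinity glucose carrier, stood at 11.12 and 10.996 in HSC, 8.39, 8.37 and 8.21 in CD31+ B220+, 8.56, 8.16 and 8.83 in CD31+ B220- and 8.63, 8.63 and 8.19 in CD31- B220-. Both HSC arrays lay above every other array. Slc2a3 was 6.65-fold lower in CD31+ B220+ than in HSC (log2 difference -2.73, SE 0.23, adjusted p = 2.09e-06). Likewise, Slc2a3 was 5.94-fold lower in CD31- B220- than in HSC (log2 difference -2.57, SE 0.23, adjusted p = 3.37e-06). Slc2a6, a hexose carrier of the lysosome, stood at 5.03 and 5.04 in HSC (not detected), 7.46, 6.32 and 7.03 in CD31+ B220+, 10.37, 10.53 and 10.33 in CD31+ B220- and 9.596, 10.198 and 10.72 in CD31- B220-. The B220- fractions were high and HSC lowest. Slc2a6 was at least 35.4-fold higher in CD31+ B220- than in HSC (adjusted p = 5.78e-07). Slc2a6 was also 11.1-fold lower in CD31+ B220+ than in CD31+ B220- (log2 difference -3.48, SE 0.31, adjusted p = 6.80e-06). The monocyte and macrophage list and the neutrophil list were also high in the B220- fractions. Unlike Slc2a6, both lists were lower in CD31+ B220+ than in HSC, and their part was not tested. Slc2a1, the broadly expressed glucose carrier, stood at 9.49 and 9.56 in HSC, 8.998, 9.37 and 9.22 in CD31+ B220+, 8.86, 9.25 and 9.37 in CD31+ B220- and 8.01, 8.16 and 8.46 in CD31- B220-, with the CD31- B220- arrays lowest. Slc2a1 was 2.5-fold lower in CD31- B220- than in HSC (log2 difference -1.32, SE 0.22, adjusted p = 3.66e-04). Slc2a4, the insulin-responsive glucose carrier, stood at 4.92 and 5.105 in HSC (not detected), 4.71, 6.0996 and 5.11 in CD31+ B220+ (1 of 3 detected), 5.35, 4.93 and 4.73 in CD31+ B220- (not detected) and 6.98, 6.895 and 6.62 in CD31- B220-. Slc2a4 was at least 2.71-fold lower in CD31+ B220- than in CD31- B220-, given with no test. Slc50a1, a sugar carrier related to the plant SWEET proteins, had means of 10.28 ± 0.33 (SD, n = 2) in HSC and 7.57 ± 0.33 (SD, n = 3) in CD31- B220-. Slc50a1 was 6.57-fold lower in CD31- B220- than in HSC (log2 difference -2.72, SE 0.25, adjusted p = 5.03e-06).

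Monocarboxylate carriers numbered 6, and 4 of them are described. Slc16a10, a carrier of aromatic amino acids placed in this family, stood at 5.94 and 5.74 in HSC, 5.67, 5.14 and 4.59 in CD31+ B220+ (1 of 3 detected), 7.43, 7.33 and 7.42 in CD31+ B220- and 9.21, 9.24 and 8.93 in CD31- B220-. Signal rose from CD31+ B220+ over CD31+ B220- to CD31- B220- with no overlap. Slc16a10 was 3.32-fold lower in CD31+ B220- than in CD31- B220- (log2 difference -1.73, SE 0.24, adjusted p = 2.41e-04). Slc16a10 was also 4.8-fold lower in CD31+ B220+ than in CD31+ B220- (log2 difference -2.26, SE 0.24, adjusted p = 2.44e-05). Slc16a6 had a mean of 9.69 ± 0.204 (SD, n = 3) in CD31- B220- against 7.96 ± 0.16 (SD, n = 3) in CD31+ B220-. Slc16a6 was 3.33-fold lower in CD31+ B220- than in CD31- B220- (log2 difference -1.73, SE 0.17, adjusted p = 2.07e-05). Slc16a9 stood at 8.32 and 8.43 in HSC, 5.05, 4.76 and 5.41 in CD31+ B220+ (not detected), 6.24, 6.02 and 4.95 in CD31+ B220- (2 of 3 detected) and 5.01, 4.92 and 5.396 in CD31- B220- (1 of 3 detected), high on both HSC arrays. Slc16a9 was at least 7.26-fold lower in CD31+ B220+ than in HSC (adjusted p = 1.38e-05). Slc16a3, the lactate exporter of glycolytic cells, stood at 5.33 and 5.06 in HSC (1 of 2 detected), 6.39, 5.85 and 5.45 in CD31+ B220+ (2 of 3 detected), 4.7998, 5.09 and 5.78 in CD31+ B220- (1 of 3 detected) and 5.28, 5.39 and 4.703 in CD31- B220- (not detected), with no comparison to be read at that level.

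Nucleoside carriers numbered 5, and each of the fractions led some of them. Slc29a1, an equilibrative carrier of purine and pyrimidine nucleosides, stood at 8.69 and 8.41 in HSC, 7.78, 7.596 and 8.13 in CD31+ B220+, 9.298, 8.88 and 8.98 in CD31+ B220- and 10.39, 10.797 and 10.01 in CD31- B220-. CD31- B220- was highest and CD31+ B220+ lowest without overlap. Slc29a1 was 5.91-fold lower in CD31+ B220+ than in CD31- B220- (log2 difference -2.56, SE 0.23, adjusted p = 3.44e-06). Likewise, Slc29a1 was 2.54-fold lower in CD31+ B220- than in CD31- B220- (log2 difference -1.35, SE 0.23, adjusted p = 0.00112). Slc29a2, its close relative, stood at 6.18 and 6.18 in HSC, 4.42, 4.55 and 4.501 in CD31+ B220+ (not detected), 4.56, 4.45 and 4.43 in CD31+ B220- (not detected) and 4.44, 4.41 and 4.43 in CD31- B220- (not detected). Slc29a2 was at least 1.58-fold lower in CD31+ B220+ than in HSC, given with no test. Slc28a2 and Slc28a2b are concentrating purine nucleoside carriers that are near-identical copies, so their probes may share signal and are uncertain. Slc28a2b stood at 6.502 and 7.13 in HSC, 8.06, 8.31 and 8.37 in CD31+ B220+, 6.46, 7.06 and 7.203 in CD31+ B220- and 6.15, 4.69 and 5.35 in CD31- B220- (1 of 3 detected). Slc28a2b was 7.2-fold higher in CD31+ B220+ than in CD31- B220- (log2 difference 2.85, SE 0.34, adjusted p = 3.31e-05). Slc28a2 stood at 5.17 and 5.52 in HSC (1 of 2 detected), 6.98, 7.28 and 7.78 in CD31+ B220+, 7.14, 5.61 and 5.34 in CD31+ B220- (2 of 3 detected) and 4.91, 4.78 and 4.68 in CD31- B220- (not detected). Slc28a2 was at least 3.65-fold higher in CD31+ B220+ than in CD31- B220- (adjusted p = 2.48e-04). The B lineage list was, like both copies, highest in CD31+ B220+, and its part was not tested. Slc29a3, the lysosomal member, had means between 8.89 ± 0.22 (SD, n = 2) in HSC and 9.65 ± 0.14 (SD, n = 3) in CD31+ B220-.

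Vesicular and organic ion carriers included Slc18a2, the member with the largest fall from HSC in each fraction. Slc18a2, which loads monoamines into vesicles and was shown above with its start region, stood at 10.55 and 9.78 in HSC, 4.64, 4.92 and 4.77 in CD31+ B220+ (not detected), 5.21, 5.71 and 5.41 in CD31+ B220- (1 of 3 detected) and 5.14, 4.79 and 5.09 in CD31- B220- (not detected). Both HSC arrays lay far above all others. Slc18a2 was at least 25.1-fold lower in CD31+ B220+ than in HSC, given with no test. Slc18a2 was also at least 25.7-fold lower in CD31- B220- than in HSC, given with no test. Slc18b1, a vesicular polyamine carrier, stood at 7.36 and 7.08 in HSC, 4.64, 4.72 and 4.95 in CD31+ B220+ (not detected), 5.23, 4.63 and 4.83 in CD31+ B220- (not detected) and 4.68, 4.896 and 4.85 in CD31- B220- (not detected), detected in HSC only. Slc18b1 was at least 3.26-fold lower in CD31+ B220+ than in HSC, given with no test. Slc22a4, the ergothioneine carrier, stood at 4.88 and 4.91 in HSC (not detected), 4.59, 4.66 and 5.02 in CD31+ B220+ (not detected), 5.799, 6.23 and 6.34 in CD31+ B220- and 8.84, 8.99 and 8.55 in CD31- B220-. Slc22a4 was at least 11.5-fold higher in CD31- B220- than in HSC (adjusted p = 1.49e-07). Slc22a4 was also 6.36-fold lower in CD31+ B220- than in CD31- B220- (log2 difference -2.67, SE 0.201, adjusted p = 2.05e-06). Slc22a23, a family member without a settled substrate, stood at 5.02 and 5.304 in HSC (1 of 2 detected), 4.96, 5.53 and 4.87 in CD31+ B220+ (1 of 3 detected), 4.91, 4.82 and 5.48 in CD31+ B220- (1 of 3 detected) and 9.19, 9.02 and 8.46 in CD31- B220-. Slc22a23 was 14.1-fold lower in CD31+ B220- than in CD31- B220- (log2 difference -3.82, SE 0.26, adjusted p = 9.97e-07). Slc22a18, an imprinted gene of the family, had means of 8.099 ± 0.36 (SD, n = 2) in HSC and 6.47 ± 0.203 (SD, n = 3) in CD31+ B220-. Slc22a18 was at least 5.98-fold lower in CD31+ B220+ than in HSC (adjusted p = 4.18e-07), on the reported probe only. Slc22a17, a receptor for lipocalin-2, had a mean of 6.91 ± 0.19 (SD, n = 2) in HSC and was detected in no fraction. Slc22a17 was at least 2.62-fold lower in CD31+ B220+ than in HSC, given with no test. Slc22a5, the carnitine carrier, ran from 8.88 ± 0.13 (SD, n = 2) in HSC to 7.78 ± 0.23 (SD, n = 3) in CD31- B220-. Slc22a5 was 2.14-fold lower in CD31- B220- than in HSC (log2 difference -1.098, SE 0.22, adjusted p = 0.0016).

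Of the metal carriers (24 members), 3 were higher and 9 lower in CD31+ B220+ than in CD31- B220-, where 22.3% and 22.5% of all tested genes were higher and lower, with a median log2 difference of -0.32 against 0.02 over all tested genes. Slc30a10, a manganese exporter, stood at 4.601 and 4.66 in HSC (not detected), 4.76, 4.87 and 4.601 in CD31+ B220+ (not detected), 4.54, 4.78 and 4.72 in CD31+ B220- (not detected) and 8.34, 8.48 and 7.94 in CD31- B220-. Only the CD31- B220- arrays detected it. Slc30a10 was at least 7.93-fold higher in CD31- B220- than in HSC, given with no test. Likewise, Slc30a10 was at least 7.25-fold lower in CD31+ B220- than in CD31- B220-, given with no test. Slc39a8, which imports zinc and manganese, stood at 4.89 and 4.82 in HSC (not detected), 4.67, 4.61 and 4.69 in CD31+ B220+ (not detected), 5.65, 4.73 and 4.89 in CD31+ B220- (1 of 3 detected) and 7.95, 8.09 and 6.38 in CD31- B220-. Slc39a8 was at least 4.62-fold higher in CD31- B220- than in HSC, given with no test. Slc41a3, a member of a magnesium carrier family, stood at 7.098 and 7.28 in HSC, 4.72, 4.98 and 5.08 in CD31+ B220+ (not detected), 7.299, 7.34 and 6.698 in CD31+ B220- and 8.25, 8.76 and 8.16 in CD31- B220-. Slc41a3 was at least 7.31-fold lower in CD31+ B220+ than in CD31- B220- (adjusted p = 2.53e-07). Slc31a1, the copper importer, had means of 9.499 ± 0.09 (SD, n = 3) in CD31- B220- and 7.95 ± 0.11 (SD, n = 3) in CD31+ B220+. Slc31a1 was 2.92-fold lower in CD31+ B220+ than in CD31- B220- (log2 difference -1.54, SE 0.16, adjusted p = 8.84e-06). Erythroid, stromal and monocyte marker lists were all high in CD31- B220-, and their part in these values was not tested.

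Slc11a1, the metal exporter of the phagosome, stood at 9.75 and 8.82 in HSC, 9.86, 10.67 and 10.72 in CD31+ B220+, 11.36, 11.32 and 11.39 in CD31+ B220- and 11.08, 11.85 and 11.92 in CD31- B220-. HSC was lowest. Slc11a1 was 4.21-fold higher in CD31+ B220- than in HSC (log2 difference 2.07, SE 0.35, adjusted p = 6.60e-04). Slc11a1 was also 5.05-fold higher in CD31- B220- than in HSC (log2 difference 2.34, SE 0.35, adjusted p = 1.97e-04). The monocyte and macrophage list and the neutrophil list were also high in the B220- fractions. Unlike Slc11a1, both lists were lower in CD31+ B220+ than in HSC, and their part was not tested. Slc39a11, a zinc importer, stood at 10.29 and 10.23 in HSC, 7.11, 7.03 and 6.74 in CD31+ B220+, 9.78, 9.66 and 9.69 in CD31+ B220- and 8.18, 8.83 and 9.04 in CD31- B220-, lowest in CD31+ B220+. Slc39a11 was 9.86-fold lower in CD31+ B220+ than in HSC (log2 difference -3.301, SE 0.24, adjusted p = 8.60e-07). Slc39a11 was also 6.74-fold lower in CD31+ B220+ than in CD31+ B220- (log2 difference -2.75, SE 0.22, adjusted p = 2.44e-06). Slc30a5, a zinc carrier of the secretory pathway, had a mean of 11.42 ± 0.15 (SD, n = 3) in CD31+ B220+ and 10.06 ± 0.29 (SD, n = 3) in CD31- B220-. Slc30a5 was 2.57-fold higher in CD31+ B220+ than in CD31- B220- (log2 difference 1.36, SE 0.19, adjusted p = 1.23e-04). Slc39a7, the zinc exporter of the endoplasmic reticulum, and Slc30a6 were among the members with the smallest spread.

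Mitochondrial carriers (36 members) included some detected on every array and some detected in HSC only. CD31- B220- cells were higher than HSC for 10 and lower for 11, where 20.6% and 29.5% of all tested genes were higher and lower, with a median log2 difference of -0.23 against -0.08 over all tested genes. Slc25a38, which brings glycine into mitochondria for haem synthesis and was shown above with its start region, stood at 10.28 and 9.88 in HSC, 10.84, 10.74 and 10.38 in CD31+ B220+, 10.21, 10.26 and 10.36 in CD31+ B220- and 12.88, 12.93 and 12.41 in CD31- B220-. The CD31- B220- arrays lay above all others. Slc25a38 was 5.51-fold lower in CD31+ B220- than in CD31- B220- (log2 difference -2.46, SE 0.202, adjusted p = 4.11e-06). Likewise, Slc25a38 was 6.32-fold higher in CD31- B220- than in HSC (log2 difference 2.66, SE 0.23, adjusted p = 2.57e-06). The erythroid list was also highest in CD31- B220-. Unlike Slc25a38, that list was lower in CD31+ B220+ than in HSC, and its part was not tested. Slc25a51, which carries NAD, stood at 5.51 and 5.56 in HSC, 6.31, 6.14 and 5.795 in CD31+ B220+, 4.61, 5.25 and 4.602 in CD31+ B220- (not detected) and 7.36, 6.87 and 6.91 in CD31- B220-. Slc25a51 was at least 3.14-fold lower in CD31+ B220- than in CD31- B220- (adjusted p = 2.34e-05). Slc25a42, a carrier of coenzyme A, stood at 5.75 and 5.88 in HSC, 6.396, 4.62 and 4.62 in CD31+ B220+ (1 of 3 detected), 4.93, 4.73 and 4.55 in CD31+ B220- (not detected) and 7.59, 7.71 and 7.12 in CD31- B220-. Slc25a42 was at least 4.23-fold lower in CD31+ B220- than in CD31- B220- (adjusted p = 3.48e-04), on the reported probe only. Slc25a18, a glutamate carrier, stood at 4.59 and 4.67 in HSC (not detected), 7.07, 6.94 and 6.94 in CD31+ B220+, 5.303, 5.36 and 5.78 in CD31+ B220- (2 of 3 detected) and 5.799, 5.099 and 5.61 in CD31- B220- (2 of 3 detected). Slc25a18 was at least 3.28-fold higher in CD31+ B220+ than in HSC (adjusted p = 8.60e-06). Slc25a27 stood at 6.36 and 6.16 in HSC, 4.65, 4.84 and 4.599 in CD31+ B220+ (not detected), 4.56, 4.56 and 4.95 in CD31+ B220- (not detected) and 4.67, 4.59 and 4.71 in CD31- B220- (not detected), in HSC only. Slc25a27 was at least 1.68-fold lower in CD31+ B220+ than in HSC, given with no test. Slc25a12, the aspartate and glutamate exchanger, had means of 7.18 ± 0.14 (SD, n = 3) in CD31+ B220+ and 8.702 ± 0.14 (SD, n = 3) in CD31+ B220-. Slc25a12 was 2.88-fold lower in CD31+ B220+ than in CD31+ B220- (log2 difference -1.53, SE 0.297, adjusted p = 0.00201), on the reported probe only. Slc25a5, an ADP and ATP exchanger, ran from 13.06 ± 0.05 (SD, n = 2) in HSC to 13.76 ± 0.0998 (SD, n = 3) in CD31+ B220-.

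Slc48a1, a haem carrier of the lysosome, stood at 11.92 and 11.85 in HSC, 8.6999, 9.25 and 9.25 in CD31+ B220+, 9.62, 10.26 and 9.88 in CD31+ B220- and 10.72, 10.83 and 10.53 in CD31- B220-. Each HSC array lay above every other array. Slc48a1 was 7.06-fold lower in CD31+ B220+ than in HSC (log2 difference -2.82, SE 0.24, adjusted p = 2.44e-06). Slc48a1 was also 3.09-fold lower in CD31+ B220+ than in CD31- B220- (log2 difference -1.63, SE 0.21, adjusted p = 6.97e-05). Slc46a3, a lysosomal carrier, stood at 8.38 and 8.44 in HSC, 8.701, 8.501 and 8.62 in CD31+ B220+, 9.85, 9.88 and 10.12 in CD31+ B220- and 11.53, 11.33 and 11.02 in CD31- B220-. It rose without overlap from CD31+ B220+ to CD31+ B220- and CD31- B220-. Slc46a3 was 6.45-fold lower in CD31+ B220+ than in CD31- B220- (log2 difference -2.69, SE 0.17, adjusted p = 2.25e-07). Slc46a3 was also 2.54-fold lower in CD31+ B220- than in CD31- B220- (log2 difference -1.35, SE 0.17, adjusted p = 1.37e-04). Slc14a1, the urea carrier that bears the Kidd blood group in humans, stood at 8.09 and 7.75 in HSC, 6.47, 7.49 and 7.61 in CD31+ B220+, 6.78, 6.93 and 7.09 in CD31+ B220- and 9.78, 9.82 and 8.92 in CD31- B220-. Slc14a1 was 5.95-fold lower in CD31+ B220- than in CD31- B220- (log2 difference -2.57, SE 0.32, adjusted p = 1.06e-04).

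Vitamin carriers (7 members) were lower than HSC for 5 in each of the 3 fractions and higher for none, where 26.9%, 25% and 29.5% of all tested genes were lower. Of the 7, Slc46a1 was detected in HSC only, so any fall of it from HSC was fixed by the detection rule. Their median log2 differences from HSC were -1.31, -0.999 and -1.36 in CD31+ B220+, CD31+ B220- and CD31- B220-, against -0.06, -0.09 and -0.08 over all tested genes. Slc23a2, which carries vitamin C, stood at 8.21 and 8.19 in HSC, 7.08, 6.72 and 5.48 in CD31+ B220+, 6.22, 5.77 and 5.64 in CD31+ B220- and 5.19, 5.79 and 4.84 in CD31- B220- (1 of 3 detected). Slc23a2 was 7.61-fold lower in CD31- B220- than in HSC (log2 difference -2.93, SE 0.42, adjusted p = 1.42e-04), on the reported probe only. Its lower calls in CD31+ B220+ and CD31+ B220- against HSC were also on that probe only. The other probe gave 0.16 and -0.07 there. Slc5a6, the carrier of biotin and pantothenate, stood at 9.08 and 9.27 in HSC, 7.69, 7.86 and 8.03 in CD31+ B220+, 8.06, 7.89 and 7.804 in CD31+ B220- and 6.92, 6.25 and 6.79 in CD31- B220-. Slc5a6 was 5.73-fold lower in CD31- B220- than in HSC (log2 difference -2.52, SE 0.22, adjusted p = 3.62e-06). Likewise, Slc5a6 was 2.48-fold lower in CD31+ B220+ than in HSC (log2 difference -1.31, SE 0.22, adjusted p = 5.72e-04). Slc19a1, the reduced folate carrier, stood at 9.55 and 9.85 in HSC, 7.704, 7.74 and 8.18 in CD31+ B220+, 8.58, 8.58 and 8.94 in CD31+ B220- and 8.69, 8.27 and 8.07 in CD31- B220-. Slc19a1 was 3.54-fold lower in CD31+ B220+ than in HSC (log2 difference -1.82, SE 0.24, adjusted p = 9.11e-05). Slc46a1, the proton-coupled folate carrier, was detected on both HSC arrays and on no other. Slc19a2, a thiamine carrier, had means of 7.76 ± 0.06 (SD, n = 2) in HSC and 8.03 ± 0.03 (SD, n = 3) in CD31- B220-. In these 3 comparisons with shared HSC arrays, the brighter raw HSC signal moved with the role, and its part was not tested.

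Ion exchangers and cotransporters (20 members) had members high in each of the groups. Slc9b2, a sodium and proton antiporter, stood at 7.504 and 7.06 in HSC, 4.49, 4.42 and 4.38 in CD31+ B220+ (not detected), 4.46, 4.46 and 4.49 in CD31+ B220- (not detected) and 4.38, 4.39 and 4.44 in CD31- B220- (not detected). Slc9b2 was at least 3.39-fold lower in CD31+ B220+ than in HSC, given with no test. Slc12a2, which brings sodium, potassium and chloride into cells, stood at 10.13 and 10.33 in HSC, 7.89, 8.46 and 8.06 in CD31+ B220+, 8.62, 8.07 and 8.95 in CD31+ B220- and 8.35, 8.24 and 7.76 in CD31- B220-. Slc12a2 was 4.26-fold lower in CD31+ B220+ than in HSC (log2 difference -2.09, SE 0.29, adjusted p = 1.11e-04). Slc12a2 was also 4.32-fold lower in CD31- B220- than in HSC (log2 difference -2.11, SE 0.29, adjusted p = 9.26e-05). Slc9a7, an exchanger of the Golgi, stood at 4.72 and 4.66 in HSC (not detected), 5.798, 6.19 and 6.53 in CD31+ B220+, 4.75, 4.72 and 4.72 in CD31+ B220- (not detected) and 4.54, 4.71 and 5.24 in CD31- B220- (not detected), detected in CD31+ B220+ only. Slc9a7 was at least 1.71-fold higher in CD31+ B220+ than in CD31+ B220-, given with no test and on the reported probe only. The log2 difference was 1.44 on that probe and 0.77 on the other. Slc4a8, a sodium-driven bicarbonate exchanger, stood at 5.19 and 5.25 in HSC (not detected), 5.27, 5.53 and 5.17 in CD31+ B220+ (1 of 3 detected), 7.23, 7.12 and 6.98 in CD31+ B220- and 5.22, 4.97 and 4.75 in CD31- B220- (not detected). Slc4a8 was at least 3.1-fold higher in CD31+ B220- than in CD31- B220-, given with no test. Slc9a9, an exchanger of endosomes, stood at 4.58 and 4.901 in HSC (not detected), 4.896, 5.46 and 4.87 in CD31+ B220+ (not detected), 6.74, 7.39 and 6.56 in CD31+ B220- and 5.93, 5.53 and 6.99 in CD31- B220- (2 of 3 detected). Slc9a9 was at least 3.1-fold higher in CD31+ B220- than in HSC (adjusted p = 0.00116). Slc8b1, the sodium and calcium exchanger of mitochondria, had means of 10.14 ± 0.24 (SD, n = 3) in CD31+ B220- and 8.61 ± 0.16 (SD, n = 3) in CD31+ B220+. Slc8b1 was 2.88-fold lower in CD31+ B220+ than in CD31+ B220- (log2 difference -1.53, SE 0.26, adjusted p = 8.72e-04).

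Peptide (4), sugar phosphate (4), phosphate (3) and choline-like (4) carriers are small groups. CD31+ B220+ held the highest group mean for 2, 1, 3 and 3 of them, and for 26.1% of all tested genes. Slc20a1, a phosphate carrier, is counted here on its reported probe. For CD31+ B220+ minus HSC it was 1.60 on that probe and -0.93 on the other. Slc15a3, which exports peptides and histidine from lysosomes, stood at 5.61 and 5.91 in HSC, 8.92, 9.11 and 8.92 in CD31+ B220+, 9.47, 9.59 and 9.57 in CD31+ B220- and 8.33, 9.37 and 9.59 in CD31- B220-. All fractions lay above HSC. Slc15a3 was 13.7-fold higher in CD31+ B220- than in HSC (log2 difference 3.78, SE 0.31, adjusted p = 3.36e-06). Slc15a3 was also 9.32-fold higher in CD31+ B220+ than in HSC (log2 difference 3.22, SE 0.31, adjusted p = 6.83e-06). Slc15a2, a peptide importer, stood at 7.92 and 7.94 in HSC, 8.64, 8.83 and 8.09 in CD31+ B220+, 5.33, 6.76 and 6.03 in CD31+ B220- (2 of 3 detected) and 7.25, 5.13 and 5.91 in CD31- B220- (2 of 3 detected), high in HSC and CD31+ B220+. Slc15a2 was 5.37-fold higher in CD31+ B220+ than in CD31- B220- (log2 difference 2.42, SE 0.49, adjusted p = 0.00159). Slc37a2, a sugar phosphate carrier of the endoplasmic reticulum, stood at 4.99 and 4.74 in HSC (not detected), 8.26, 8.42 and 7.58 in CD31+ B220+, 6.68, 6.25 and 5.38 in CD31+ B220- (2 of 3 detected) and 5.24, 5.51 and 5.34 in CD31- B220- (not detected). Slc37a2 was at least 7.07-fold higher in CD31+ B220+ than in HSC (adjusted p = 1.84e-05). Likewise, Slc37a2 was at least 6.1-fold higher in CD31+ B220+ than in CD31- B220- (adjusted p = 2.38e-05). Slc34a1, a sodium and phosphate cotransporter best known from kidney, stood at 4.63 and 4.58 in HSC (not detected), 5.84, 6.903 and 6.61 in CD31+ B220+, 4.83, 4.72 and 4.75 in CD31+ B220- (not detected) and 4.94, 4.76 and 5.72 in CD31- B220- (1 of 3 detected). Slc34a1 was at least 2.27-fold higher in CD31+ B220+ than in HSC, given with no test. Slc44a2, a choline carrier, had means of 12.22 ± 0.11 (SD, n = 3) in CD31+ B220+ and 10.52 ± 0.22 (SD, n = 3) in CD31- B220-. Slc44a2 was 3.25-fold higher in CD31+ B220+ than in CD31- B220- (log2 difference 1.699, SE 0.17, adjusted p = 8.21e-06). The B lineage list was also highest in CD31+ B220+, and its part in the members high there was not tested.

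**Figure D4:**
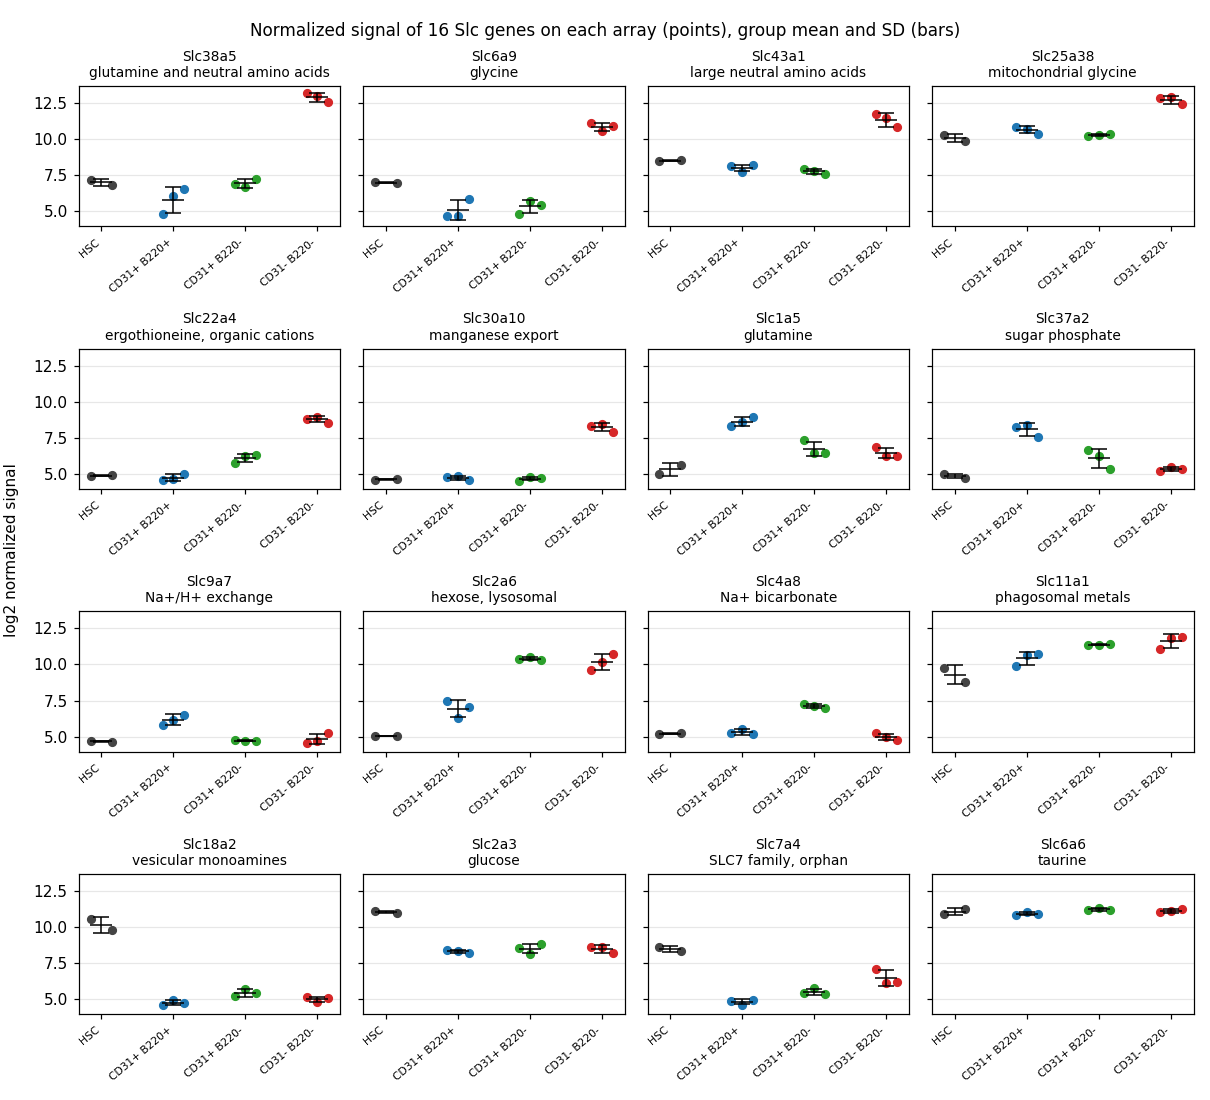
Log2 normalized signal (vertical axis) of 16 Slc genes on each of the 11 arrays, with points for arrays and bars for the group mean and SD in HSC (n = 2) and the 3 AGE+ fractions (n = 3 each). Slc38a5, Slc6a9, Slc43a1, Slc25a38, Slc22a4 and Slc30a10 are highest in CD31- B220-, Slc18a2, Slc2a3 and Slc7a4 in HSC, and Slc6a6 lies at about the same level in all 4 groups.

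Carriers assigned to the endoplasmic reticulum and Golgi, a role named for the sugar nucleotides used in glycosylation, numbered 18. The role was given by gene family, and what each of the 18 carries was not tested. Slc33a1, the carrier of acetyl-CoA, was detected on 1 array only and is not among them. Slc35c1, the GDP-fucose carrier, stood at 12.31 and 11.89 in HSC, 11.02, 11.06 and 11.07 in CD31+ B220+, 12.17, 12.03 and 12.203 in CD31+ B220- and 11.13, 11.06 and 11.44 in CD31- B220-. HSC and CD31+ B220- overlapped and the other fractions lay lower, so that Slc35c1 was 2.12-fold lower in CD31+ B220+ than in CD31+ B220- (log2 difference -1.08, SE 0.17, adjusted p = 5.08e-04). Against HSC its lower calls were on the reported probe only. For CD31- B220- minus HSC it was -0.89 there and -0.15 to 0.01 on its others. Slc35c2 had a mean of 9.98 ± 0.09 (SD, n = 3) in CD31+ B220- and 8.76 ± 0.42 (SD, n = 3) in CD31- B220-. Slc35c2 was 2.33-fold higher in CD31+ B220- than in CD31- B220- (log2 difference 1.22, SE 0.23, adjusted p = 0.00182). Slc35e2 was 4.57-fold lower in CD31+ B220- than in CD31- B220- (log2 difference -2.19, SE 0.22, adjusted p = 2.31e-05). Slc35e3 was 3.08-fold higher in CD31+ B220+ than in CD31- B220- (log2 difference 1.62, SE 0.196, adjusted p = 3.56e-05). Slc35e1 was 3.44-fold higher in CD31+ B220- than in HSC (log2 difference 1.78, SE 0.18, adjusted p = 1.64e-05), a call that median scaling ended (log2 difference 0.37, adjusted p = 0.206).

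Further carriers with a known load followed the same range of patterns. Slc25a3, the phosphate carrier of mitochondria, stood at 11.98 and 12.34 in HSC, 11.401, 11.05 and 11.16 in CD31+ B220+, 11.59, 11.31 and 11.37 in CD31+ B220- and 11.59, 11.77 and 11.13 in CD31- B220-. Slc25a20, which exchanges carnitine and acylcarnitine, had means of 10.34 ± 0.15 (SD, n = 2) in HSC and 9.18 ± 0.28 (SD, n = 3) in CD31- B220-. The differences of both genes from HSC were on the reported probe only. For CD31- B220- minus HSC, Slc25a3 was -0.66 on it and 0.04 on the other. In the same comparison Slc25a20 was -1.16 on it and 0.17 to 0.51 on its others. Slc25a39, which brings glutathione into mitochondria, stood at 8.27 and 8.504 in HSC, 6.96, 7.67 and 7.72 in CD31+ B220+, 8.52, 9.09 and 8.42 in CD31+ B220- and 9.15, 9.04 and 9.72 in CD31- B220-, lowest in CD31+ B220+. Slc25a39 was 3.61-fold lower in CD31+ B220+ than in CD31- B220- (log2 difference -1.85, SE 0.27, adjusted p = 1.59e-04). Slc43a3, a carrier of purine bases, stood at 5.11 and 4.96 in HSC (not detected), 5.02, 5.04 and 4.83 in CD31+ B220+ (not detected), 5.46, 4.99 and 4.78 in CD31+ B220- (1 of 3 detected) and 6.73, 6.94 and 5.94 in CD31- B220-. Slc43a3 was at least 2.41-fold higher in CD31- B220- than in HSC, given with no test. Slc2a8, a hexose carrier of intracellular membranes, stood at 5.61 and 6.28 in HSC, 5.73, 6.56 and 5.89 in CD31+ B220+, 5.75, 6.51 and 6.903 in CD31+ B220- and 7.62, 7.93 and 6.98 in CD31- B220-. Slc2a8 was 2.73-fold lower in CD31+ B220+ than in CD31- B220- (log2 difference -1.45, SE 0.35, adjusted p = 0.00545), on the reported probe only. Slc39a10, a zinc importer, stood at 6.65 and 6.68 in HSC, 5.72, 5.83 and 4.47 in CD31+ B220+ (2 of 3 detected), 5.46, 4.797 and 5.02 in CD31+ B220- (not detected) and 5.88, 4.68 and 4.58 in CD31- B220- (1 of 3 detected). Slc52a3, a riboflavin carrier, stood at 7.49 and 7.54 in HSC, 7.09, 6.95 and 6.98 in CD31+ B220+, 6.55, 5.99 and 5.53 in CD31+ B220- and 4.92, 6.71 and 5.71 in CD31- B220- (2 of 3 detected). Slc52a3 was 3.34-fold lower in CD31- B220- than in HSC (log2 difference -1.74, SE 0.43, adjusted p = 0.00545). Slc27a1, a carrier of long-chain fatty acids, stood at 6.81 and 7.598 in HSC, 7.04, 7.12 and 7.08 in CD31+ B220+, 4.87, 6.06 and 6.09 in CD31+ B220- (2 of 3 detected) and 4.94, 5.995 and 5.37 in CD31- B220- (1 of 3 detected), high in HSC and CD31+ B220+. Slc27a1 was 3.14-fold higher in CD31+ B220+ than in CD31- B220- (log2 difference 1.65, SE 0.36, adjusted p = 0.00273).

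Of the 141 members called over the 4 groups, 56 had their highest mean in HSC, 37 in CD31- B220-, 29 in CD31+ B220+ and 19 in CD31+ B220-. The range from the lowest to the highest group mean had medians of 1.697, 2.19, 1.48 and 1.53 on the log2 scale in these sets. The 141 and the 56 include members detected in HSC only, and also Slc18a2, whose differences from HSC the detection rule fixed, so these counts are a description. In the list that follows, the members detected in HSC only are Slc22a21, Slc25a29, Slc27a6, Slc2a10, Slc35d3, Slc35f2 and Slc38a4. Those highest in HSC and not described above were Slc12a7, Slc16a13, Slc17a8, Slc17a9, Slc1a6, Slc22a21, Slc25a1, Slc25a15, Slc25a23, Slc25a29, Slc25a45, Slc25a46, Slc27a6, Slc2a10, Slc35b2, Slc35b4, Slc35d2, Slc35d3, Slc35f2, Slc37a1, Slc37a4, Slc38a4, Slc39a13, Slc39a3 and Slc39a6. In CD31- B220- these were Slc12a1, Slc25a16, Slc25a30, Slc25a44, Slc30a1, Slc30a9, Slc35a2, Slc44a1, Slc45a4, Slc66a2, Slc6a12, Slc7a7 and Slc9a8, in CD31+ B220+ Slc12a3, Slc15a4, Slc20a1, Slc22a7, Slc25a28, Slc25a53, Slc35b3, Slc36a3, Slc38a1, Slc38a10, Slc39a9, Slc41a2, Slc4a2 and Slc66a1, and in CD31+ B220- Slc16a14, Slc24a3, Slc25a10, Slc26a6, Slc30a7, Slc31a2 and Slc8a1. The list rests on the reported probes, and other probes of Slc8a1 and Slc44a1 went the other way. For CD31+ B220+ minus CD31+ B220-, Slc8a1 was -2.21 on the reported probe and 0.37 on the other. For CD31+ B220- minus CD31- B220-, Slc44a1 was -1.31 on the reported probe and 0.60 on the other. The other 68 members were not called over the 4 groups, with a range of group means from 0.12 to 1.32 (median 0.62), and a missed threshold does not show that their levels were equal. The light chains Slc7a7 and Slc7a11 show both cases over the 4 groups. Each also had a call in a single comparison, on the reported probe only. For CD31+ B220+ minus CD31+ B220-, Slc7a7 was -0.97 on that probe and -0.79 on the other. For CD31- B220- minus HSC, Slc7a11 was 0.82 on that probe and 0.40 on the other. Slc7a7 stood at 6.34 and 6.53 in HSC, 7.03, 6.05 and 5.69 in CD31+ B220+, 7.43, 7.15 and 7.12 in CD31+ B220- and 6.85, 7.47 and 7.43 in CD31- B220-, and Slc7a11, the cystine and glutamate exchanger, at 4.81 and 4.62 in HSC (not detected), 5.11, 5.73 and 5.49 in CD31+ B220+ (2 of 3 detected), 5.98, 4.92 and 5.096 in CD31+ B220- (1 of 3 detected) and 5.48, 5.45 and 5.67 in CD31- B220- (2 of 3 detected).

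The 10 members with the smallest spread of group means among those detected on all 11 arrays were Slc10a3, Slc25a17, Slc25a26, Slc30a6, Slc35a4, Slc35b1, Slc39a7, Slc4a1ap, Slc6a6 and Slc7a6os. They were picked for that spread, so it is a description. Slc6a6, the taurine carrier, stood at 10.89 and 11.24 in HSC, 10.81, 11.04 and 10.92 in CD31+ B220+, 11.15, 11.35 and 11.18 in CD31+ B220- and 11.02, 11.11 and 11.28 in CD31- B220-. Slc39a7 stood at 9.55 and 9.59 in HSC, 9.55, 9.48 and 9.78 in CD31+ B220+, 9.18, 9.7999 and 9.48 in CD31+ B220- and 9.56, 9.29 and 9.88 in CD31- B220-, and Slc25a17, a peroxisomal carrier of coenzyme A and related cofactors, at 9.72 and 9.44 in HSC, 10.18, 9.72 and 9.78 in CD31+ B220+, 9.63, 9.72 and 9.37 in CD31+ B220- and 9.47, 9.81 and 9.603 in CD31- B220-. Arrays of all groups overlapped for Slc39a7, while for Slc6a6 the CD31+ B220+ arrays lay just below the CD31+ B220- arrays.

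Further probes were present for 66 of the members, 96 probes in all. Of the called members with further probes, 17 of 33, 14 of 24 and 17 of 37 in CD31+ B220+, CD31+ B220- and CD31- B220- against HSC had no other probe called. Between the fractions these were 11 of 25 for the CD31+ fractions, 11 of 33 for CD31+ B220+ against CD31- B220- and 9 of 24 for the B220- fractions. Differences described as on the reported probe only were among them: Slc22a18 in CD31+ B220+ minus HSC was -3.43 on that probe and 0.03 on the other, and Slc23a2 in CD31- B220- minus HSC was -2.93 and -0.32. Slc25a42 in CD31+ B220- minus CD31- B220- was -2.74 and 0.28. For CD31+ B220+ minus CD31+ B220-, Slc7a8 was -1.82 and -0.28 and Slc25a12 -1.53 and -0.46. For CD31+ B220+ minus CD31- B220-, Slc38a2 was 1.48 against 0.22 to 0.49 on its others, and Slc2a8 was -1.45 against -0.32 to 0.06. Slc12a3, the sodium and chloride cotransporter best known from kidney, showed the reverse: for CD31+ B220+ minus HSC it was 1.29 on the reported probe and 2.57 to 5.15 on 3 others. For CD31- B220- minus HSC its called difference of 1.18 stood against -0.23 to 0.18 on those 3. Where a further probe was also called, opposite directions came up for 2 of 20 such probes in CD31+ B220+ against HSC (Slc20a1 and Slc8a1), 0 of 12 in CD31+ B220- against HSC, 1 of 26 in CD31- B220- against HSC (Slc44a2), 1 of 20 between the CD31+ fractions (Slc44a1), 1 of 29 between CD31+ B220+ and CD31- B220- (Slc8a1) and 0 of 19 between the B220- fractions. Those 4 genes carry no settled direction in the comparisons named. Averaging the detected probes of a gene moved several differences by more than 1.5-fold: for CD31+ B220+ minus HSC, that of Slc22a18 went from -3.43 to -1.70 and that of Slc1a5 from 3.29 to 2.20. In the same way Slc41a3 went from -3.46 to -2.45 and Slc16a10 from -3.995 to -3.33 for CD31+ B220+ minus CD31- B220-. For CD31- B220- minus HSC, Slc23a2 went from -2.93 to -1.62. For CD31+ B220- minus HSC, Slc11a1 went from 2.07 to 3.13.

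Other transport genes were read beside the carriers from a list of 56, with 36 of 47 probed genes tested. CD31- B220- cells were higher than HSC for 15 and lower for 8 (20.6% and 29.5% of all tested genes), with a median log2 difference of 0.07 against -0.08 over all. CD31+ B220+ cells were higher for 5 and lower for 17 than CD31- B220- cells (22.3% and 22.5% of all), with a median of -0.44 against 0.02. Abcb10, a mitochondrial transporter needed for haem synthesis, stood at 4.596 and 4.77 in HSC (not detected), 5.104, 4.899 and 4.88 in CD31+ B220+ (not detected), 5.64, 4.91 and 4.92 in CD31+ B220- (1 of 3 detected) and 9.62, 9.33 and 8.89 in CD31- B220-. For Abcb10, the log2 difference of CD31+ B220- minus CD31- B220- was -4.12, given with no test. Mfsd2b, which exports sphingosine-1-phosphate from red cells, stood at 4.78 and 5.37 in HSC (1 of 2 detected), 5.35, 4.71 and 5.23 in CD31+ B220+ (not detected), 6.13, 5.32 and 5.88 in CD31+ B220- and 8.83, 8.89 and 8.62 in CD31- B220-. For Mfsd2b, the log2 difference of CD31+ B220- minus CD31- B220- was -3.0001 (adjusted p = 5.75e-06). Aqp1, a water channel of red cells and vessels, stood at 10.33 and 10.59 in HSC, 7.07, 8.16 and 8.37 in CD31+ B220+, 9.59, 9.61 and 9.71 in CD31+ B220- and 14.05, 13.84 and 13.71 in CD31- B220-. For Aqp1, the log2 difference of CD31+ B220- minus CD31- B220- was -4.23 (adjusted p = 9.23e-07). The 3 genes were highest in the same fraction as Slc38a5, Slc6a9 and Slc25a38. Atp1b1, a subunit of the sodium pump, stood at 5.75 and 6.02 in HSC, 12.78, 12.96 and 12.82 in CD31+ B220+, 9.73, 8.65 and 9.59 in CD31+ B220- and 6.596, 6.61 and 6.75 in CD31- B220-. For Atp1b1, the log2 difference of CD31+ B220+ minus CD31+ B220- was 3.53 (adjusted p = 1.09e-06). Emb, a partner of monocarboxylate carriers, stood at 10.71 and 11.22 in HSC, 6.89, 7.06 and 6.38 in CD31+ B220+, 12.11, 12.67 and 12.53 in CD31+ B220- and 11.55, 11.55 and 12.18 in CD31- B220-, lowest in CD31+ B220+. For Emb, the log2 difference of CD31+ B220+ minus CD31+ B220- was -5.66 (adjusted p = 5.22e-08). Slco4a1, an organic anion carrier, stood at 9.36 and 9.33 in HSC, 11.13, 10.83 and 10.87 in CD31+ B220+, 9.78, 9.18 and 9.81 in CD31+ B220- and 5.69, 4.58 and 5.39 in CD31- B220- (2 of 3 detected). For Slco4a1, the log2 difference of CD31+ B220+ minus CD31- B220- was 5.72 (adjusted p = 2.31e-08).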

How the data were processed

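The RNA of sorted mouse marrow cells was measured on 11 Illumina MouseWG-6 v2 bead arrays. The authors deposited a table of non-normalized bead intensity on a linear scale, with a fraction beside each value headed as a detection p-value, per the file headers. That deposited fraction rises with signal, so 1 minus it was taken as the p. A further deposited table of processed values fits a log2 scale, though its base is not given. Per the submitters' processing notes, lumi 1.1.0 was among the tools.

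Intensities were background-corrected from the detection p-values (normexp), quantile-normalized and log2-transformed after adding 16 (neqc of limma 3.58.1, R 4.3.3, with data.table, version 1.17.8). Of 45281 probes, 34885 carried 1 symbol in the platform annotation. The other 10396, of which 18 carried several symbols, had no single symbol and were not used for any gene. Each gene is read from its probe of highest mean raw signal. Genes detected on at least 2 arrays (11367) entered 1 linear model with a mean per group, tested with limma's moderated test and F-test, 2-sided, with Benjamini-Hochberg adjustment at 0.05. A bound sets the brighter group's mean against, per dim array, the higher of its own signal and the lowest signal that array detected. The steps were tested on simulated data. Precision is limited by the number of arrays.

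The members and all lists were chosen with earlier results of these data known. Genes were named by rule: in each comparison the 10 largest rises and falls among called members detected on every array of the brighter group, the members of a list of carriers by role, the 10 with the smallest spread, and the other transport genes. Further members are given as examples of their role and were chosen after their values were seen. Family 66 and some roles were assigned by hand after the members were found. The alternatives were median scaling, other background corrections, the deposited processed values, other filters, the compared groups alone, a replicate block, the mean of a gene's detected probes, and each array left out. Figures were drawn with matplotlib 3.10.9 (python 3.11.15, pandas 2.3.3).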

Additional observations from a re-analysis of the deposited data

How the results depend on the processing

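Of the counts of called members, all kept within 1.5 times their value under the alternatives tried except those given here. With median scaling, 147 members were called in CD31+ B220+ against HSC (16 higher, 131 lower), 151 in CD31+ B220- against HSC (17 higher, 134 lower), 27 were higher and 116 lower in CD31- B220- against HSC, and 16 were higher in CD31+ B220+ against CD31+ B220-. Higher calls were then 10.9%, 11.3%, 18.9% and 30.8% of the called members in these comparisons. With 1 array left out, CD31+ B220- against HSC ran from 50 to 81 calls (18 to 31 higher and 32 to 50 lower), and members higher in CD31+ B220- than in CD31- B220- from 19 to 31. Fewer arrays entered those fits. The cause of the shift under median scaling was not tested. Among named genes, 2369 values kept their direction and call, 28 kept their direction and lost the call, and 1 turned: Slc35e1 in CD31+ B220+ against HSC was -0.063 with median scaling (adjusted p = 0.833). Among all members, median scaling turned 6 called differences from higher to lower, both past the threshold: Slc25a30 and Slc4a1ap in CD31+ B220+, Slc16a6, Slc31a1 and Slc4a2 in CD31+ B220-, and Slc25a30 in CD31- B220-, each against HSC.

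Replicate numbers are shared between groups, but the labels tie no number to an animal or a day. Over 15 pairs of same-numbered arrays the deviations from the group means correlated at -0.0751 to 0.182, with 1 pair over 0.1. That pair, array 1 of CD31+ B220+ and of CD31+ B220-, held the highest correlation of each of its arrays. In every other group at once, 0 of 11 arrays correlated best with its own number. With a replicate block, 87, 68 and 101 members were called in CD31+ B220+, CD31+ B220- and CD31- B220- against HSC, 67 between the CD31+ fractions, 85 between CD31+ B220+ and CD31- B220- and 60 between the B220- fractions. Probes near background limit what can be read: a gene not detected in a group has only an upper bound there.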
